A study of Mus musculus with 8 samples.

Results

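Cajal-Retzius cells and the reelin pathway were described by 10 genes of the count table, chosen by name. Of these, 7 are markers of Cajal-Retzius cells (Reln, Trp73, Lhx1, Lhx5, Ebf2, Ebf3 and Calb2), and 3 encode the receptors and the adaptor of reelin (Vldlr, Lrp8 and Dab1). All 10 were among the 16397 genes of the table and among the 13707 protein-coding genes tested. RNA came from hippocampi of wild-type C57Bl/6J embryos at E15.5. The 4 IUGR hippocampi came from dams that carried a pump with U-46619, a thromboxane A2 analog that raises maternal blood pressure, from E12.5, and the 4 sham hippocampi from dams whose pump held vehicle (ethanol) only. Both groups therefore shared the surgery, the anesthesia and the vehicle, and both sexes were included. IUGR (intrauterine growth restriction) libraries carry the prefix T1, and sham libraries carry S1 or S3. The labels do not say what the prefix or the number marks, or whether littermates were used, so the p values measure only the spread between these libraries, and whatever the prefix marks cannot be told apart from the treatment.

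Cajal-Retzius cells are early-born neurons of the marginal zone, the outermost layer of the developing cortex and hippocampus. They arise at the edges of the pallium, chiefly the cortical hem, the pallial septum and the ventral pallium, and spread beneath the meninges, where they gather along the hippocampal fissure. They secrete reelin, a large extracellular glycoprotein. Reelin binds the lipoprotein receptors Vldlr and Lrp8 (also called ApoER2) on migrating neurons and radial glia, which leads to phosphorylation of the adaptor Dab1 by Src family kinases. In the hippocampus this signal is needed for the layering of the pyramidal cells and of the dentate gyrus.

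The promoters of Reln and Trp73 are shown because the ratio of their reads is given by library further on. Reln encodes reelin itself, and Trp73 encodes p73, a transcription factor of the p53 family needed for Cajal-Retzius cells. In the table of RefSeq promoters used here (GRCm38.p6), 7 of the 10 genes were matched, Trp73 with 2 starts. The 250 bases before each start are printed on the strand of the gene, which is the minus strand for both. Capitals mark GGGCGG (the Sp1 box) and CCCNNGGG (the core bound by EBF factors, the family of Ebf2 and Ebf3), each searched on both strands.
Reln, chr5:22344706-22344955: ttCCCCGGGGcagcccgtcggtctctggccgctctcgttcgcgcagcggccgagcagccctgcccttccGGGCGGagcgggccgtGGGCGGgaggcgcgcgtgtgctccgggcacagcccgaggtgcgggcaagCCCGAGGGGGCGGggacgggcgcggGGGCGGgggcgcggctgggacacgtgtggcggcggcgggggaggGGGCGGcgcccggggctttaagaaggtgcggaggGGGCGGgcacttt
Trp73, inner start, chr4:154097174-154097423: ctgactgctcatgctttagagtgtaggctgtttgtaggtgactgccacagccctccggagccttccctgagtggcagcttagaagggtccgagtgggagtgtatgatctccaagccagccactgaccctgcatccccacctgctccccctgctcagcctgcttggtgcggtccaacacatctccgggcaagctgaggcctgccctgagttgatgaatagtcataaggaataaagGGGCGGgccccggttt
Trp73, outer start, chr4:154139876-154140125: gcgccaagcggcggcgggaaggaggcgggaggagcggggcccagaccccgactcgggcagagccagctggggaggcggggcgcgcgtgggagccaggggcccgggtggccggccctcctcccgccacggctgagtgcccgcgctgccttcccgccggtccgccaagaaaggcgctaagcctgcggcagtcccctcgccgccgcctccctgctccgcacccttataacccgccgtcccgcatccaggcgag
The Reln window held 6 matches to GGGCGG and 2 to CCCNNGGG, 1 of which overlaps a GGGCGG match. The inner start of Trp73 lies before the GENCODE transcripts Trp73-201, Trp73-202, Trp73-203 and Trp73-205, and its window held 1 GGGCGG match, 16 bases before the start. The outer start lies before Trp73-204, and its window held no match to either motif. Of the 32851 promoter windows of the same length in the table, 32.7% held GGGCGG and 11.8% held CCCNNGGG. TAATTA (a homeodomain core, 4.84% of windows) and TATAAA (12.4%) were also searched and matched none of these 3 windows. The windows of Reln and of the outer Trp73 start held 37 and 31 CpG dinucleotides and that of the inner Trp73 start held 6, which is also the median of all windows. The deposited counts are per gene, so reads from transcripts of the inner and the outer start of Trp73 were not separated.

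The libraries held 12919546 to 16672463 counts (IUGR) and 11212632 to 15405748 counts (sham). All 10 genes of a list of hippocampal and pallial excitatory markers passed the count filter in this tissue. Zbtb20, a transcription factor of hippocampal neurons, averaged 407 CPM in IUGR and 514 CPM in sham (CPM, counts per 1000000 after TMM normalization). The libraries also held RNA of neighbouring tissue, in amounts that differed between them. The summed CPM of 10 meningeal fibroblast markers reached 2917 in T1-3, 80.3 in T1-4 and 274 to 814 in the other 6 libraries. That of 10 choroid plexus markers ranged from 45.0 to 339 in the IUGR libraries, against 900 to 1296 in the sham libraries. The summed CPM of the 10 excitatory markers was 955 in S1-4 against 1598 to 2009 in the other sham libraries. Among the IUGR libraries it was lowest in T1-4, at 1092. That of subpallial and interneuron markers was 1132 in S1-4 and 1280 in T1-4, each the highest of its group. The part of these lists in the values of the 10 genes was not tested. In RNA from whole tissue, fewer cells of a type and less RNA per cell cannot be told apart.

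None of the 10 genes was called between IUGR and sham hippocampi, and none had groups that did not overlap. The call asked for an adjusted p of 0.05 or less together with a log2 fold change of 1 or more, up or down, in edgeR's quasi-likelihood test (Benjamini-Hochberg adjustment over the 13707 tested genes), and 1.46% of these genes met it. Groups that did not overlap were found in 7.14% of all tested genes. At an unadjusted p under 0.05, edgeR, DESeq2's Wald test and limma-voom each found 1 of the 10 genes, Calb2, against 11.1% of all tested genes in edgeR. DESeq2 and limma-voom also called 0 of the 10. A log2 fold change above 0 stands for a higher value in IUGR. The median log2 fold change was 0.37 for the 7 marker genes and 0.00037 for the 3 receptor and adaptor genes, beside a median of −0.023 for all tested genes. The marker median was the value of Reln, and the receptor and adaptor median was that of Vldlr. The marker median rested on single libraries, at 0.089 without T1-3, 0.19 without S1-4 and 0.63 without S3-4, which are also the values of Reln. With each library left out in turn, the receptor and adaptor median ran from 0.034 (without T1-4) to 0.14 (without T1-5).

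**Figure D1:**
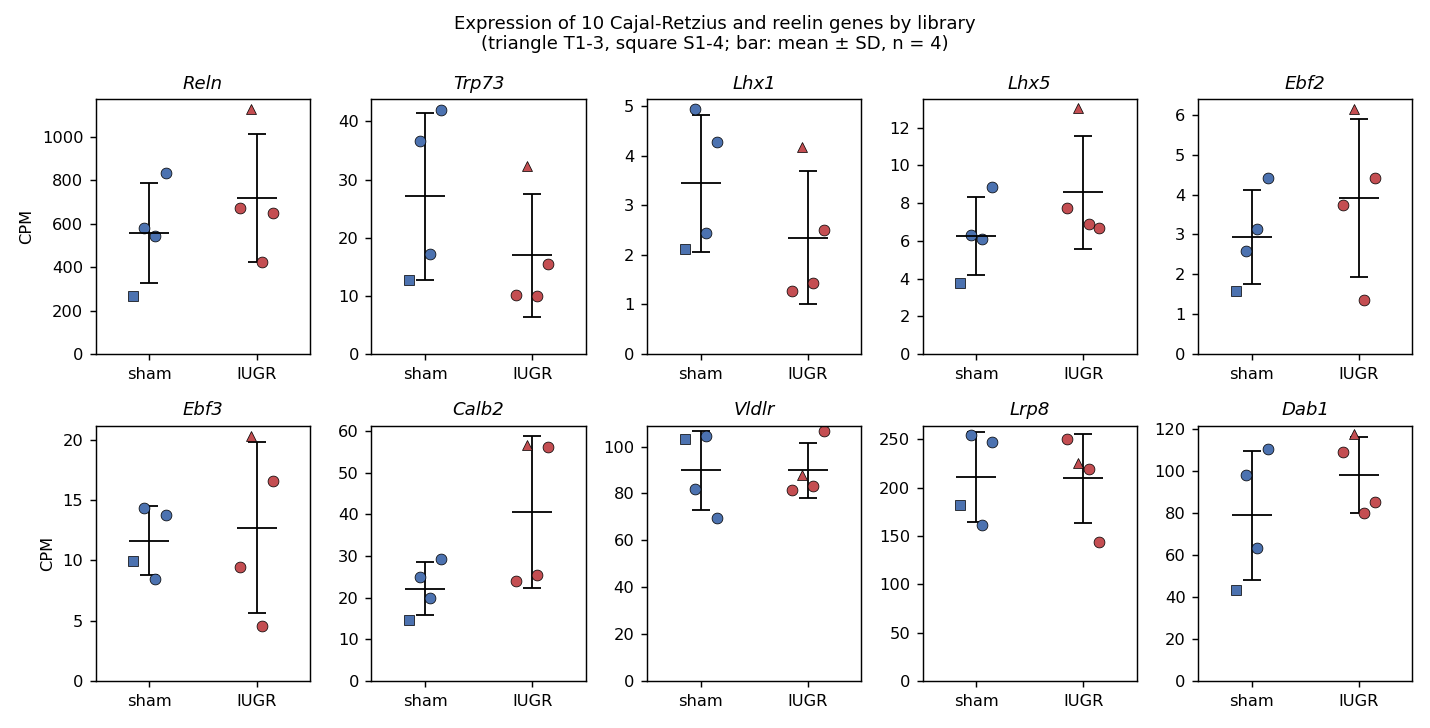
Each panel plots 1 gene, with CPM on the vertical axis (linear, from 0) and the sham and IUGR libraries as points. Bars give the mean ± SD (n = 4). In each of the 10 panels the values of the groups overlap. Library T1-3 (triangle) is the highest of all 8 for Reln, Lhx5, Ebf2, Ebf3, Calb2 and Dab1, and S1-4 (square) is the lowest sham library for Reln, Trp73, Lhx1, Lhx5, Ebf2, Calb2 and Dab1.

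Reln (chromosome 5, 21884454 to 22344702) was read at 672, 1129, 426 and 651 CPM in the IUGR libraries T1-1, T1-3, T1-4 and T1-5. The sham libraries S1-4, S1-6, S3-1 and S3-4 had 268, 581, 545 and 832 CPM. T1-3 was the highest and S1-4 the lowest, and the other 6 libraries interleaved. The means were 720 ± 295 CPM in the IUGR libraries against 557 ± 231 CPM in the sham libraries (SD, n = 4 each), and the log2 fold change was 0.37 (standard error 0.35, 95% interval −0.40 to 1.14, edgeR adjusted p = 0.963). The two-sided exact permutation test over the libraries gave p = 0.486. The log2 fold change of Reln was 0.089 without T1-3, 0.19 without S1-4 and 0.63 without S3-4. Counts were high, from 2899 to 18374 reads per library. The parts of depth and of the spread between libraries in the width of the interval were not tested. A pseudogene in the table, Dnaja1-ps, lies within Reln on the same strand.

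Trp73 (chromosome 4, 154056253 to 154140208) had the opposite order of means. Its values were 10.1, 32.3, 10.03 and 15.5 CPM in T1-1, T1-3, T1-4 and T1-5, and 12.7, 36.6, 17.2 and 42.0 CPM in S1-4, S1-6, S3-1 and S3-4. T1-1 and T1-4 lay below all 4 sham libraries, T1-5 lay above S1-4 alone, and T1-3 lay above S1-4 and S3-1. The means were 16.997 ± 10.5 and 27.1 ± 14.4 CPM (SD, n = 4 each), and the log2 fold change was −0.67 (standard error 0.46, 95% interval −1.69 to 0.35, edgeR adjusted p = 0.800; exact permutation p = 0.200). Single libraries moved the log2 fold change of Trp73 both ways, to −1.17 without T1-3 (edgeR unadjusted p = 0.0208, adjusted p = 0.312) and to −0.38 without S3-4 (unadjusted p = 0.448).

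Calb2 (chromosome 8, 110137502 to 110168210) encodes calretinin, a calcium-binding protein of Cajal-Retzius cells and of several types of interneuron. It was at 24.0, 56.6, 25.4 and 56.3 CPM in T1-1, T1-3, T1-4 and T1-5, and at 14.5, 24.9, 19.9 and 29.2 CPM in S1-4, S1-6, S3-1 and S3-4. T1-3 and T1-5 stood at about the same level above every sham library, whereas T1-1 and T1-4 lay within the sham range. The log2 fold change of Calb2 was 0.87 (standard error 0.33, 95% interval 0.15 to 1.60), the largest of the 10. Its unadjusted p of 0.0231 in edgeR did not pass adjustment over all genes (adjusted p = 0.306), and the exact permutation test gave p = 0.143. With each library left out in turn the log2 fold change of Calb2 was 0.68 to 1.08 and its unadjusted edgeR p 0.00761 to 0.0741. The adjusted p was 0.114 with DESeq2's Wald test and 0.399 with limma-voom. Subpallial and interneuron markers, whose neurons can also make calretinin, had a summed CPM of 568 to 1280 in the IUGR libraries against 522 to 1132 in the sham libraries, and T1-3 had the lowest of the IUGR sums. T1-3 and T1-5 were also the 2 highest libraries in the summed CPM of the meningeal (2917 and 814), endothelial and pericyte (535 and 432) and microglial markers (100.2 and 61.4). The part of these lists in the Calb2 values was not tested.

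Lhx1 and Lhx5 encode LIM homeodomain transcription factors, and both are active in Cajal-Retzius cells. Lhx5 (chromosome 5, 120431699 to 120441223) was at 7.72, 13.0, 6.91 and 6.69 CPM in T1-1, T1-3, T1-4 and T1-5, and at 3.79, 6.32, 6.12 and 8.84 CPM in S1-4, S1-6, S3-1 and S3-4. Only the sham library S3-4 lay above the lowest IUGR value of Lhx5. Its log2 fold change was 0.45 (standard error 0.31, 95% interval −0.23 to 1.14, edgeR adjusted p = 0.797), and it was 0.21 without T1-3 and 0.67 without S3-4. Lhx1 (chromosome 11, 84518284 to 84525535) was rarer, with 17 to 68 reads per library. It was at 1.27, 4.18, 1.43 and 2.51 CPM in T1-1, T1-3, T1-4 and T1-5, and at 2.13, 4.93, 2.43 and 4.28 CPM in S1-4, S1-6, S3-1 and S3-4. T1-1 and T1-4 lay below all sham values of Lhx1 and the other 2 IUGR libraries lay among them. The log2 fold change of Lhx1 was −0.54 (standard error 0.44, 95% interval −1.51 to 0.43, edgeR adjusted p = 0.911). It was −0.96 without T1-3 (unadjusted p = 0.0444), −0.31 without T1-1 and −0.32 without S1-6.

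Ebf2 and Ebf3 encode transcription factors of the early B-cell factor family, made in Cajal-Retzius cells as they differentiate. Ebf2 (chromosome 14, 67233292 to 67430918) ranged from 1.35 to 6.15 CPM in the IUGR libraries against 1.57 to 4.42 CPM in the sham libraries. Ebf3 (chromosome 7, 137193673 to 137314445) ranged from 4.55 to 20.3 CPM in the IUGR libraries against 8.47 to 14.4 CPM in the sham libraries. For both genes the IUGR range enclosed the sham range, with T1-4 lowest and T1-3 highest of all 8 libraries. The log2 fold changes were 0.42 for Ebf2 (standard error 0.45, 95% interval −0.58 to 1.41) and 0.13 for Ebf3 (standard error 0.40, 95% interval −0.75 to 1.01). Without T1-3 they were 0.13 for Ebf2 and −0.17 for Ebf3, and without T1-4 they were 0.69 and 0.41. Ebf2 was also at 0.26 without S1-4 and 0.68 without S3-4. T1-4 and T1-3 were also the libraries with the lowest and the highest meningeal sums, whose part in these values was not tested.

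The receptors differed least between the groups. Vldlr and Lrp8 carry in their cytoplasmic tail the tetrapeptide asparagine-proline-valine-tyrosine, to which Dab1 binds. The coding stretch around it is printed because both receptors share this site, with the 4 codons of the motif in capitals, from the GENCODE M21 transcripts with the longest coding sequence (Vldlr-207 and Lrp8-201, GRCm38, plus strand).
Vldlr, exon 18, chr19:27247928-27247963: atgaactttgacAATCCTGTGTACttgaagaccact
Lrp8, exon 17, chr4:107869049-107869084: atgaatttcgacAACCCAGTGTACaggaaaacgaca
The 2 stretches were identical at 27 of 36 bases and encode the same residue at 11 of 12 codons, and each coding sequence held the motif once. Vldlr (chromosome 19, 27216484 to 27254231) was at 81.4, 87.6, 83.3 and 107 CPM in T1-1, T1-3, T1-4 and T1-5, and at 103, 82.0, 104 and 69.6 CPM in S1-4, S1-6, S3-1 and S3-4. The means were 89.8 ± 11.6 and 89.8 ± 16.9 CPM (SD, n = 4 each), and the 95% interval of the log2 fold change of Vldlr was −0.36 to 0.36. Lrp8 (chromosome 4, 107802261 to 107876840) was at 251, 226, 220 and 144 CPM in T1-1, T1-3, T1-4 and T1-5, and at 182, 255, 161 and 247 CPM in S1-4, S1-6, S3-1 and S3-4. The means were 210 ± 46.0 and 211 ± 46.7 CPM, with a 95% interval of −0.46 to 0.44 for the log2 fold change of Lrp8. As folds these intervals are 0.782 to 1.28 for Vldlr and 0.729 to 1.36 for Lrp8, narrower than those of the 7 markers, such as 0.758 to 2.20 for Reln. The antisense gene Lrp8os2 overlaps Lrp8 on the other strand. The kit kept the strand, but whether reads were counted by strand is not given in the sources used here.

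Dab1 (chromosome 4, 103619359 to 104744844), the adaptor, was at 109, 118, 80.1 and 85.4 CPM in T1-1, T1-3, T1-4 and T1-5, and at 43.4, 98.0, 63.5 and 110 CPM in S1-4, S1-6, S3-1 and S3-4. S1-4 and S3-1 lay below every IUGR library, and the other 2 sham libraries lay among them. The log2 fold change of Dab1 was 0.31 (standard error 0.27, 95% interval −0.28 to 0.91, edgeR adjusted p = 0.931; exact permutation p = 0.343), and it was 0.16 without S1-4 and 0.52 without S3-4.

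**Figure D2:**
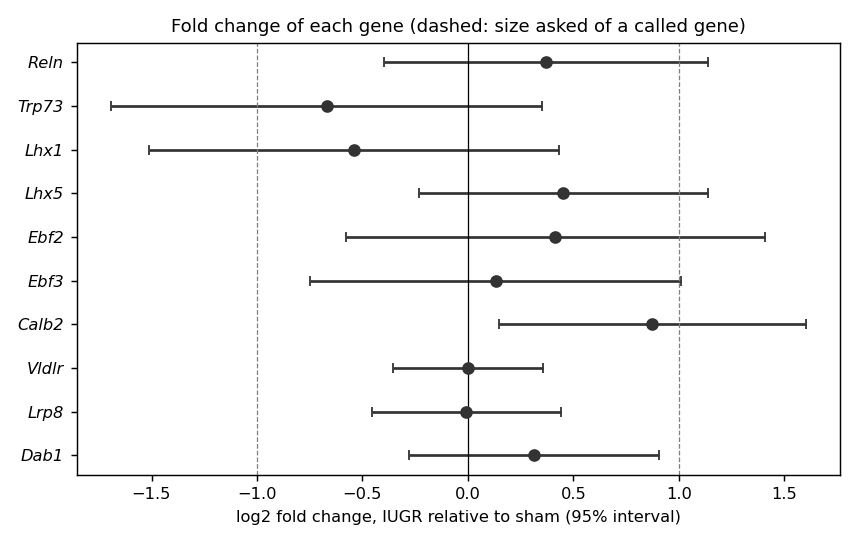
The horizontal axis gives the log2 fold change of IUGR relative to sham for each of the 10 genes, with its 95% interval from edgeR's fit (4 libraries per group); dashed lines mark the size asked of a called gene. The interval of Calb2 (0.15 to 1.60) alone lies to 1 side of 0, and those of Vldlr and Lrp8 are the narrowest.

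Expressed per kilobase of exon, which allows levels to be compared between genes, Reln was the most abundant, at 30.3 ± 12.4 CPM per kilobase in the IUGR libraries against 23.5 ± 9.73 in the sham libraries (SD, n = 4 each). In sham hippocampi Lrp8 followed at 20.1 ± 4.45, Calb2 at 12.7 ± 3.63, Dab1 at 9.96 ± 3.90 and Vldlr at 8.92 ± 1.68 CPM per kilobase. Trp73 (4.90 ± 2.60), Lhx5 (2.33 ± 0.77), Ebf3 (1.26 ± 0.31), Lhx1 (0.85 ± 0.34) and Ebf2 (0.42 ± 0.17 CPM per kilobase) came after them. The transcription factor genes were thus the lowest of the 10. For all 9 pairs of neighbours in this order, the ranges of the 4 sham libraries overlapped. In IUGR hippocampi the order of the means differed by 2 exchanges of neighbours, Calb2 (23.3) above Lrp8 (19.97) and Lhx5 (3.19) above Trp73 (3.07 CPM per kilobase).

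The 10 genes were next compared within each library, since a ratio of 2 genes does not depend on library scaling. Not all are markers of the same cells, since the receptors lie on migrating neurons and radial glia and interneurons also make calretinin. In T1-1, T1-3, T1-4 and T1-5 there were 15.1, 28.6, 23.5 and 23.8 Trp73 reads per 1000 Reln reads. In S1-4, S1-6, S3-1 and S3-4 there were 47.3, 63.0, 31.5 and 50.4. Every IUGR library thus had fewer Trp73 reads per Reln read than every sham library. On the log2 scale the ratio of Reln to Trp73 was 5.49 ± 0.39 in the IUGR libraries against 4.42 ± 0.42 in the sham libraries (SD, n = 4 each), a difference of 1.07. The exact two-sided permutation test gave p = 0.0286, the smallest that 4 against 4 libraries allow. Adjusted by the Benjamini-Hochberg method over the 45 pairs of the 10 genes it was 0.161, which does not pass. This ratio was singled out after the values were seen. With each library left out in turn, the log2 ratio of Trp73 to Reln differed between the groups by −1.26 to −0.89.

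Of the 45 pairs, 8 (17.8%) had ratios that did not overlap between the groups. The share over all pairs of tested genes was not computed. The pairs share genes, and the markers varied together within the groups, so the pairs are not independent. The shares of other genes given next are therefore not a matched baseline, and they were computed for Reln, Trp73 and Lhx1 only. For ratios to Reln the pairs without overlap were 2 of 9 (Trp73 and Lhx1), beside 4.34% of other tested genes with reads in every library. For ratios to Trp73 they were 3 of 9 (Reln, Lhx5 and Calb2), beside 3.1%. For ratios to Lhx1 they were 4 of 9 (Reln, Lhx5, Calb2 and Dab1), beside 4.98%. Pairs that hold Trp73 or Lhx1, but not both, were 16 of the 45 (35.6%) and 7 of the 8 that did not overlap. In these 7, Trp73 or Lhx1 was lower relative to its partner in the IUGR libraries. This grouping was chosen after the values were seen. Trp73 and Lhx1 were the 2 markers with a log2 fold change below 0, so the 7 pairs are not a separate result. The remaining pair of the 8 was Ebf3 and Calb2. Lhx1 had 1.90, 3.70, 3.36 and 3.85 reads per 1000 Reln reads in T1-1, T1-3, T1-4 and T1-5, and 7.93, 8.49, 4.46 and 5.14 in S1-4, S1-6, S3-1 and S3-4. Trp73 and Lhx1 kept a similar ratio to each other, with 6182 to 7941 Trp73 reads per 1000 Lhx1 reads in the IUGR libraries against 5957 to 9817 in the sham libraries. Lhx5 and Reln did so as well, with 10.3 to 16.2 Lhx5 reads per 1000 Reln reads in the IUGR libraries against 10.6 to 14.1 in the sham libraries. In the same libraries the CPM sums of the cortical hem list and of the choroid plexus list were lower in IUGR without overlap. Those of the pallial septum and ventral pallium list (537 to 1047 against 250 to 405 in the sham libraries) and of the neuron list were higher without overlap, and the part of these 4 lists in the ratios was not tested.

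**Figure D3:**
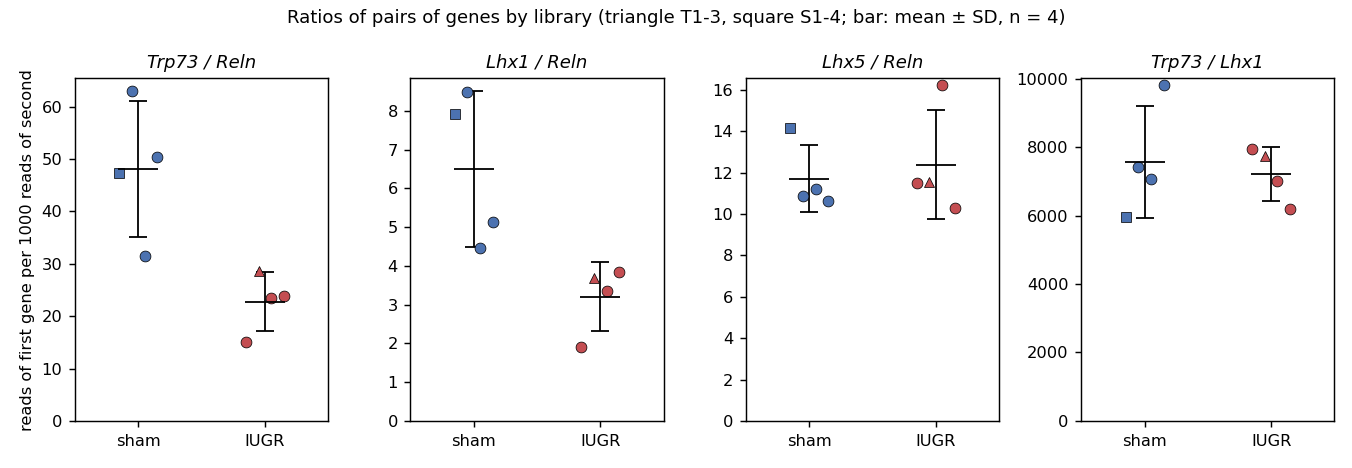
Each panel plots reads of the first gene per 1000 reads of the second in each library (linear axes from 0, mean ± SD, n = 4). Trp73 and Lhx1 relative to Reln are lower in the 4 IUGR libraries than in the 4 sham libraries without overlap, whereas Lhx5 relative to Reln and Trp73 relative to Lhx1 overlap.

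After the mean of each group was subtracted from log2 CPM, every pair of the 7 markers had a positive Pearson's r over the 8 libraries. It ran from 0.50 for Lhx5 with Ebf3 (Spearman's rho 0.38) to 0.96 for Trp73 with Lhx1 (0.90), and was 0.94 for Reln with Lhx5 (0.98), 0.87 for Reln with Trp73 (0.93) and 0.67 for Reln with Ebf3 (0.52). Of the other genes, Dab1 had r = 0.87 with Reln (rho 0.86). Lrp8 had r = 0.67 with Dab1 (rho 0.67), 0.34 with Reln (0.48) and −0.12 with Calb2 (−0.14). Vldlr had r = −0.90 with Lrp8 (rho −0.88), −0.77 with Dab1 (−0.62) and −0.46 with Reln (−0.38). These values describe 8 libraries that share differences in tissue content, and the share of positive r over all gene pairs was not computed. Among 11906 other genes that averaged 50 or more counts, the patterns closest to Reln were those of Hspa12a (r = 0.99, rho 0.98), Opcml (0.98, 0.98) and Gsg1l (0.98, 0.93). Those closest to Trp73 were Wdr44 (0.99, 0.98), Reep5 (0.99, 0.90) and Pcca (0.97, 0.98), and those closest to Dab1 were Nr4a3 (0.99, 0.93), Tbr1 (0.99, 0.95) and Zfpm2 (0.97, 0.93).

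Of 10 further genes of Cajal-Retzius cells, none was called, 6 had a log2 fold change below 0 and 4 above, and the median was −0.20. The 3 with the largest log2 fold changes were Emx2 (−0.74, standard error 0.44), a transcription factor of the medial pallium, Cacna2d2 (0.69, 0.29), a calcium channel subunit, and Cxcr4 (−0.66, 0.17), the receptor for the meningeal chemokine Cxcl12. Cxcr4 was at 41.4 to 56.7 CPM in the IUGR libraries against 70.9 to 108 CPM in the sham libraries without overlap. It was the only such gene of these 10, beside 7.14% of all tested genes. Its adjusted p was 0.106 in edgeR, 0.0879 in limma-voom and 0.0287 in DESeq2's Wald test, and its fold change was below the size asked of a call in all 3. Nr2f2, Nhlh2 and Cdkn1a had −0.63, −0.54 and −0.40, and Tbr1, Zic2 and Ndnf had 0.60, 0.49 and 0.39, each with an edgeR adjusted p above that of Cxcr4. Several genes of this list are also made in other cells.

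Of 25 kinases, adaptors and effectors that carry the reelin signal inside the cell, none was called, 15 had a log2 fold change above 0 and 10 below, and their median was 0.021. Fyn and Src, the kinases that phosphorylate Dab1, had log2 fold changes of 0.17 and 0.067, and Crk and Crkl, which bind phosphorylated Dab1, 0.037 and −0.048. Pafah1b1 (Lis1), which binds the dynein motor, had 0.077. The largest were those of Cdk5r2 (0.72, standard error 0.41), an activator of Cdk5, of Mapt (0.70, 0.18), which encodes the microtubule protein tau, and of Dcx (0.34, 0.16), a microtubule protein of migrating neurons. Mapt was at 416 to 713 CPM in the IUGR libraries against 271 to 376 CPM in the sham libraries without overlap, and its edgeR adjusted p was 0.103. Cdk5r1, a second activator of Cdk5, was named after its values were seen. It was at 353 to 423 CPM against 304 to 343 CPM without overlap (log2 fold change 0.24, unadjusted p = 0.0528, adjusted p = 0.461 in edgeR). Mapt and Cdk5r1 were the 2 of the 25 genes without overlap, near the 7.14% found over all tested genes. The summed CPM of the 25 genes was 6535 to 6674 in the IUGR libraries against 5943 to 6219 in the sham libraries, which did not overlap. Mapt and Dcx made up 394 of the 529 CPM between the group means, and the sums of the other 23 genes overlapped, at 4987 to 5301 against 4958 to 5088 CPM (a split chosen after the values were seen). That of 8 neuron markers, Dcx among them, was 4955 to 5372 and 3562 to 4537, and its part in these sums was not tested.

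Among 12 genes for the turnover and processing of reelin, its receptors and Dab1, none was called, 8 had a log2 fold change below 0 and 4 above, and the median was −0.041. Lrpap1 encodes RAP, a chaperone that keeps ligands from lipoprotein receptors during their synthesis. It was at 79.7 ± 6.23 CPM in the IUGR libraries against 132 ± 25.4 CPM in the sham libraries (SD, n = 4 each) without overlap. Its log2 fold change was −0.73 (standard error 0.15, edgeR adjusted p = 0.0411), which passed the p but not the fold criterion. When libraries were left out in turn, the adjusted p was 0.0395 to 0.135 and stayed at or below 0.05 for 1 of the 8. Mesdc2, also named Mesd, a second chaperone of these receptors, was named after its values were seen. It was at 67.8 to 77.6 CPM in the IUGR libraries against 84.4 to 94.8 CPM in the sham libraries without overlap (log2 fold change −0.29, adjusted p = 0.302 in edgeR). Lrpap1 and Mesdc2 were the 2 of the 12 genes without overlap, beside 7.14% of all tested genes. The reelin proteases Adamts2 and Adamts3 were at 0.89 (standard error 0.54) and −0.40 (0.30) on the log2 scale. Socs7 and Cul5, which direct the degradation of phosphorylated Dab1, had −0.026 and −0.056.

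Of 9 tested genes for other ligands and coreceptors, none was called, with 6 log2 fold changes below 0 and 3 above. Efnb3, an ephrin, was at 76.7 to 150 CPM in the IUGR libraries against 40.0 to 64.2 CPM in the sham libraries without overlap. It was the only such gene of these 9, beside 7.14% of all tested genes. Its log2 fold change was 1.08 (standard error 0.24), and its adjusted p in edgeR was 0.0557, or 0.0372 without T1-5 and 0.0470 without S1-6, which would be calls. DESeq2's Wald test and limma-voom called it, with adjusted p values of 0.000758 and 0.0405. Itga3, a subunit of an integrin that binds reelin, had −0.69 (standard error 0.27, adjusted p = 0.336), and Thbs1, a ligand of the same receptors, −0.63 (0.19, adjusted p = 0.182) in edgeR.

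Lists of genes active at the sources of Cajal-Retzius cells were also counted. Of 11 tested genes of the cortical hem, 6 were called and all 6 were lower in IUGR hippocampi, while all 11 had a log2 fold change below 0, with a median of −1.96. Over all tested genes 1.36% were called lower and 0.102% higher. The 6 were the Wnt ligand genes Wnt3a (−3.03) and Wnt2b (−2.40), the transcription factor gene Lmx1a (−3.09) and the genes of the Wnt-enhancing R-spondins, Rspo2 (−2.88), Rspo1 (−1.96) and Rspo3 (−1.34). The number called depended on single libraries, with 1 without S1-4, 2 without T1-4, 3 without T1-1 and 3 without S3-4. It was 0 with only the S1 or only the S3 sham libraries, and 0 at an adjusted p of 0.01 or less. Across the other tools, normalizations and filters it ran from 4 (as with upper-quartile normalization) to 7 (DESeq2's Wald test). The hem list summed to 49.0 to 204 CPM in the IUGR libraries against 252 to 423 CPM in the sham libraries, and the choroid plexus, which develops beside the hem and shares some of its genes, had 10 of 10 log2 fold changes below 0 and 3 of 10 genes called lower. Of 6 tested genes of the pallial septum and ventral pallium, 1 was called. This gene, Zic1, a zinc finger transcription factor also made in the meninges, was at 465 to 911 CPM in the IUGR libraries against 209 to 318 CPM in the sham libraries (log2 fold change 1.19, standard error 0.24, adjusted p = 0.0403 in edgeR). Zic1 was called after leaving out 1 of the 8 libraries (T1-5) and not after leaving out any other, with adjusted p values from 0.0339 to 0.146. Fgf17 was at 1.33 (standard error 0.61) and Sfrp2 at −0.011 on the log2 scale. Markers of the meninges had 10 of 10 log2 fold changes above 0 with none called, and their part in the Zic1 value was not tested.

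**Figure D4:**
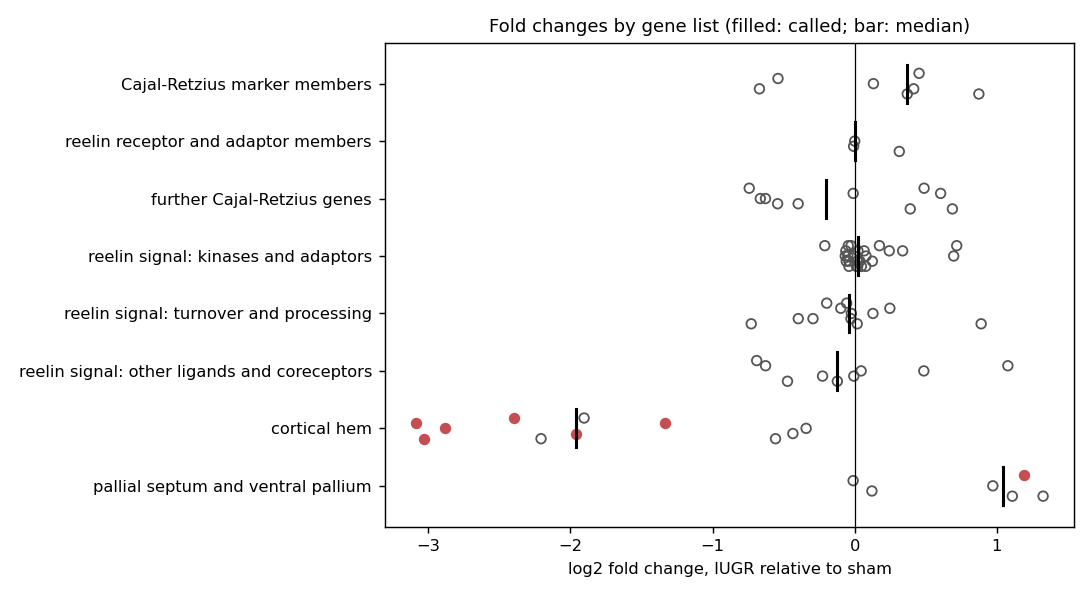
The horizontal axis gives the log2 fold change of IUGR relative to sham for each tested gene of 8 lists; points are genes, filled where called, and bars are list medians. The 6 filled points of the cortical hem lie between −3.09 and −1.34 and Zic1 at 1.19, whereas the 7 marker genes lie between −0.67 and 0.87 and the 3 receptor and adaptor genes between −0.0074 and 0.31.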

How the data were processed

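Total RNA of hippocampi was depleted of ribosomal RNA and sequenced as single reads. Per the labels, Novoalign 2.8 and mm10 were used. The deposited values are counts of reads on each gene as the authors made them, not normalized, and the counting program, annotation and strand setting are not given in the sources used here. Identifiers were matched to GENCODE M21, and 273 of 16397 had no match. Protein-coding genes whose counts averaged 10 or more but under 50000 were tested in R 4.3.3 with edgeR 4.0.16 (TMM, quasi-likelihood test), and 95% intervals are the log2 fold change ± its standard error times the t quantile. DESeq2 1.42.0 and limma 3.58.1 (voom) were alternatives, with other normalizations, filters and left-out libraries. The code was tested on simulated data. The 10 genes and the lists were chosen with earlier results of these data known. All 10 are described. From each pathway list the called genes were named, or, if under 3 were called, also the 3 with the largest log2 fold change among genes averaging 50 or more counts. For Reln, Trp73 and Dab1, the 3 genes of highest Pearson's r were named (prior count 2). Other genes named were chosen after their values were seen. Promoters are from RefSeq. Some items that these rules would name are not reported here.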

Additional observations from a re-analysis of the deposited data

Results flagged for a closer look

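Lhx5 in library T1-3 stood apart from the other IUGR hippocampi. It was at 13.0 CPM, and the other 3 libraries lay between 6.69 and 7.72 CPM, so that the gap was 0.838 of the range of the group, above Dixon's 95% critical value for 4 samples. Chance gives such a gap in about 5% of groups, and 20 groups (10 genes in IUGR and sham) were examined. T1-3 also had the highest meningeal sum, and its part in this value was not tested.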

How the results depend on the processing

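None of the 10 genes was called under any normalization, tool, filter, threshold or left-out library tried. Reln, Trp73, Lhx1, Lhx5, Ebf2, Calb2 and Dab1 kept their direction under all 18 alternatives. Lrp8 turned to 0.018 with DESeq2 size factors, upper-quartile normalization or DESeq2's Wald test, 0.033 without the count filter and 0.086 with only the S3 sham libraries, Vldlr to −0.023 with only the S1 sham libraries and Ebf3 to −0.0066 with limma-voom (log2 fold changes). With each library left out in turn, they ranged from −0.12 to 0.14 for Lrp8, −0.10 to 0.12 for Vldlr and −0.17 to 0.41 for Ebf3. Genes with groups that did not overlap numbered 0 to 1 in these 8 fits (Lhx5, without S3-4, where 8.4% of all tested genes did not overlap) and 2 with only the S1 sham libraries (Lhx5 and Calb2, beside 15.9% of all tested genes). The causes were not tested. The median of the 7 markers ranged from 0.089 (without T1-3) to 0.79 (only the S1 sham libraries). The ratio of Trp73 to Reln and the grouping of pairs by Trp73 and Lhx1 were chosen after the values were seen. Lhx1 and Ebf2 had low mean counts, 38.3 and 46.6, and the part of depth in their standard errors was not tested. No paired analysis was possible because the numbers in the sample names (1, 3, 4 and 5 in IUGR, 1, 4, 4 and 6 in sham) are not shared one to one and the labels do not say what they mark.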
